A study of Equus caballus with 6 samples.

Results

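GAPDH, SLC2A1, VEGFA and ADM are 4 genes that link the use of glucose to the response to low oxygen. They were followed here in white blood cells of horses before and after exercise. The members are the probes of a horse expression array whose transcript accession belongs to 1 of the 4 genes. There are 29 such probes among 43603, and the 4 genes are among 870 whose RefSeq transcript could be matched to a probe. GAPDH has 13 probes, VEGFA 10, ADM 4 and SLC2A1 2, each printed as a single spot per array.

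The samples came from 3 gelded warmblood horses, numbered 1, 2 and 4 in the titles and labelled as 11, 7 and 15 years old. The design text gives an age range of 9 to 17 years, which leaves out the labelled age of horse 2. Each animal gave buffy coat leukocytes from jugular blood before exercise and again after it, so each group has 3 arrays and each horse is its own control. The samples taken afterwards are labelled 60 min, whereas the sampling protocol speaks of blood drawn immediately after exercise, and the kind of exercise is not given in the sources used here. RNA was labelled with Cy3 and read on 1-colour Agilent arrays.

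Glycolysis turns glucose into pyruvate in the cytosol and yields ATP without oxygen. SLC2A1 encodes GLUT1, a carrier that lets glucose into many cell types, and GAPDH is the glycolytic enzyme that oxidises glyceraldehyde 3-phosphate. When oxygen is short, hypoxia-inducible factors are stabilised and raise the transcription of glucose carriers, of glycolytic enzymes and of secreted signals. VEGFA, a growth factor for blood vessel endothelium, and ADM, the vasodilator peptide adrenomedullin, are among those secreted signals. Neutrophils, the most abundant leukocyte of horse blood, rely largely on glycolysis.

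On each array 64.1% to 69.4% of the spots were well above background by the scanner software's own flag, called the background mark below. The measured leukocyte markers were those of neutrophils (3), monocytes (4), T cells (3), B cells (3) and NK and cytotoxic cells (4). All were well above background on all 6 arrays. So were 2 markers each of platelets, red cells, endothelium, and eosinophils and basophils. The markers thus do not tell 1 blood layer from another. Levels are given as log2 of the processed signal minus log2 of the array's 75th percentile, so 0 is the brightness that 75% of spots lie below. That percentile was 1124 on the horse 4 array after exercise, the dimmest, and 1753 to 2536 on the others. The horse 4 array after exercise also had the lowest share of spots well above background, 64.1%. Each probe binds with its own strength, so levels of different probes or genes are not compared as amounts of RNA. The arrays lay on 2 slides: the samples of horses 1 and 2 from before exercise on slide 2, the other 4 arrays on slide 1. For horses 1 and 2 the difference between before and after thus also crosses from one slide to the other, and for horse 4 it does not. Array number limits the precision throughout.

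The 4 genes fell into a bright gene and 3 dim ones. All 78 GAPDH spots were well above background, with signals from 3711 to 119347. For SLC2A1 it was 8 of 12 spots, with signals from 15.2 to 62.9. For VEGFA it was 22 of 60 spots and for ADM 7 of 24, and no signal of either was above 71.3. Negative control spots, which match no horse transcript, had a 95th percentile of 5.98 to 13.5 on the 6 arrays. All 12 SLC2A1 spots, 57 of 60 VEGFA spots and 22 of 24 ADM spots exceeded it on their array. The scanner software's error estimate was typically 10.0% of the signal for GAPDH spots, 21.4% for SLC2A1, 25.8% for VEGFA and 31.7% for ADM.

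Testing required a probe to pass the background mark on 3 or more of the 6 arrays. This kept 21 of the 29 member probes: all 13 of GAPDH, both of SLC2A1, 4 of 10 of VEGFA and 2 of 4 of ADM. None of the 21 passed the test after against before exercise, and none had an unadjusted p under 0.05 (limma, moderated test, smallest adjusted p = 0.999). Over all probes limma called 0 of 29570 (0%), and 855 had an unadjusted p under 0.05. With the horse as a block, which uses the pairing of the samples, it again called 0 of 29552 (0%), with 1793 at an unadjusted p under 0.05. Of the member probes 2 were among those 1793, 1 of SLC2A1 and 1 of ADM. The plot of change by probe gives all 21 values.

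**Figure D1:**
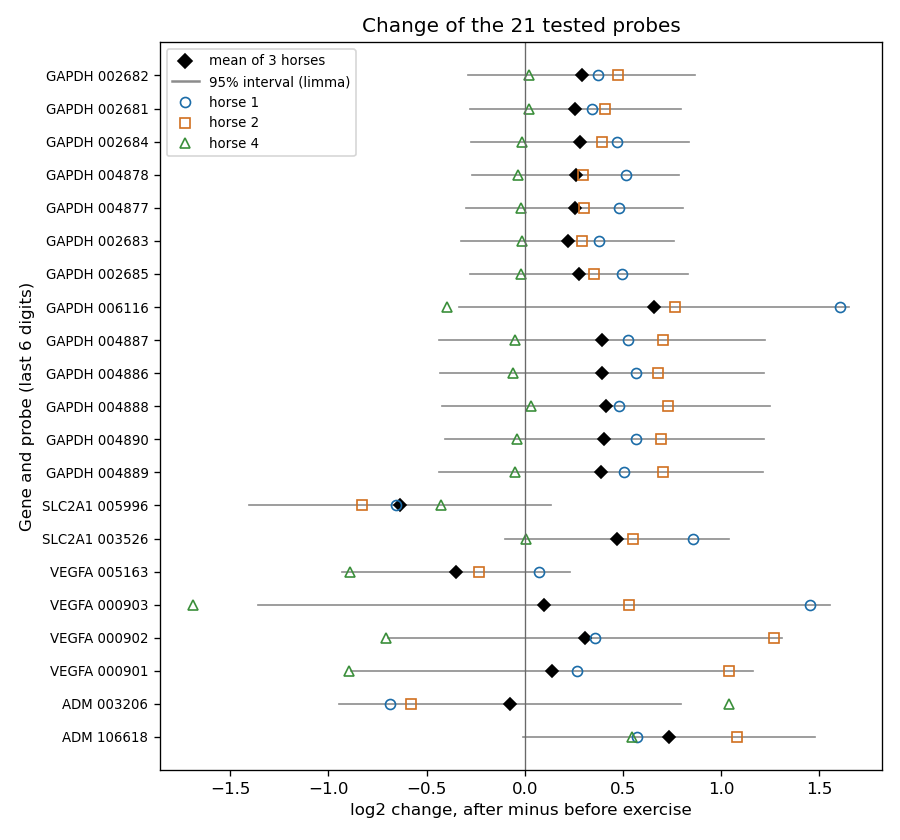
Log2 change after minus before exercise (x axis) for each tested probe (y axis): diamonds are means of 3 horses with the 95% limma interval as a line, and open symbols are single horses. The intervals come from the fit without the horse, so they do not use the pairing, and every one contains 0. With the horse as a block, 2 of these probes had an unadjusted p under 0.05 (limma). The 13 GAPDH means lie above 0, and both SLC2A1 probes point opposite ways.

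Of the 4 genes GAPDH was the only one measured without a limit from background, and its 13 probes all had a mean change above 0. The brightest probe, A_69_P002682, had levels of 5.56, 5.18 and 5.92 before exercise in horses 1, 2 and 4. After exercise they were 5.93, 5.65 and 5.94. The groups overlapped, since the horse 4 sample from before exercise was as high as the samples taken after. The mean was 5.55 ± 0.37 before and 5.84 ± 0.17 after (SD, n = 3), a change of 0.29 (SE 0.24, 95% interval -0.29 to 0.87; limma, adjusted p = 0.999). On the linear scale this is 1.22-fold, with an interval from 0.82 to 1.83.

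The horses differed in this change in the same way on nearly every GAPDH probe. In horse 1 all 13 probes were higher after exercise, by 0.34 to 1.61. In horse 2 all 13 were higher too, by 0.29 to 0.77. In horse 4 only 3 of 13 were higher, and the changes ran from -0.40 to 0.034. Over all tested probes, 47.9% were lower in horse 1, 41.8% in horse 2 and 49.5% in horse 4, and the median change was 0.044. Probes of a transcript report on the same RNA, so their number does not add replicates. Horse 4 gives the only comparison within both an animal and a slide, and on the brightest probe its change was 0.022. Slide 1 as a whole sets the 3 arrays after exercise against the single horse 4 array from before, at -0.079 on this probe. That value mixes animals and rests on 1 array before exercise, the highest of the 3 for this probe, so no direction is drawn from it. Slide and exercise cannot be told apart for horses 1 and 2.

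**Figure D2:**
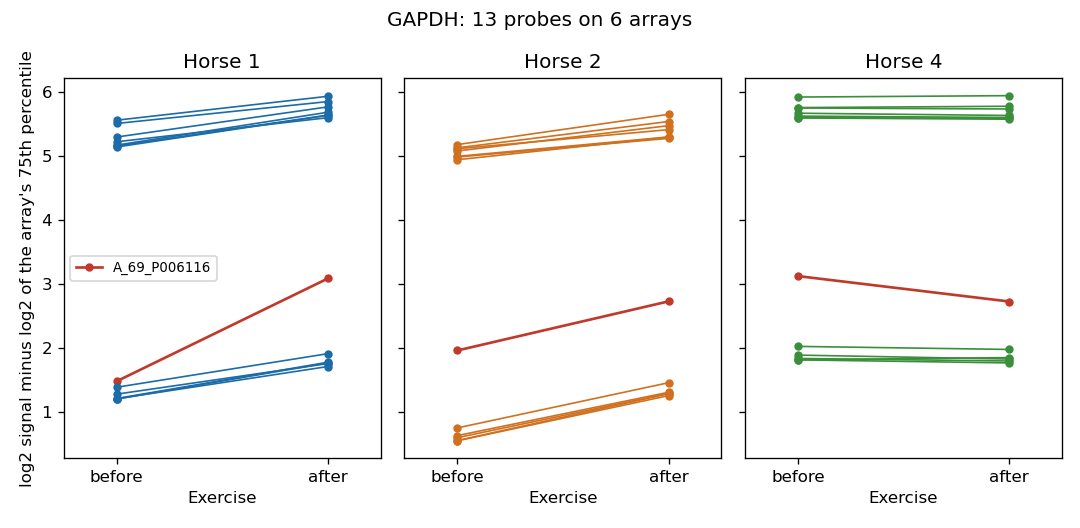
Level of each of the 13 GAPDH probes (y axis, log2 relative to the array's 75th percentile) before and after exercise (x axis), with a panel per horse and a line per probe. Lines slope upward in horses 1 and 2 and stay near level in horse 4, and A_69_P006116 (red) stands apart.

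The GAPDH probes followed each other closely across arrays, with 1 exception. Pearson's r between pairs of probes over the 6 arrays had a median of 0.98 over 78 pairs and a lowest value of 0.68. Without A_69_P006116 the lowest of 66 pairs was 0.91. These 6 arrays come from 3 animals, and probes share the array's scaling, so the values describe agreement and carry no test. Across probes with levels between 5.23 and 5.55 before exercise (7 probes), the change ran from 0.22 to 0.29. Across the 5 with levels between 1.19 and 1.39, it ran from 0.39 to 0.41. The difference came mainly from horse 2, where the first 7 changed by 0.29 to 0.47 and the other 5 by 0.68 to 0.73.

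Probe A_69_P006116 departed most from the rest of the GAPDH probes. Its levels were 1.48, 1.96 and 3.12 before exercise in horses 1, 2 and 4, and 3.09, 2.73 and 2.73 after. The horse 1 sample from before exercise was its lowest array, whereas for each of the other 12 probes the lowest was the horse 2 sample from before exercise. The change was 0.66 (SE 0.42; limma, adjusted p = 0.999), from 1.61 in horse 1, 0.77 in horse 2 and -0.40 in horse 4. This probe was chosen for description after its values were seen.

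GAPDH levels were also set side by side by animal, and no difference between horses passed the test. The counts given here are of probes of the same RNA and add no replicates. The mean over both samples of a horse was highest in horse 4 on 13 of 13 probes and lowest in horse 2 on 12 of 13. For the brightest probe the means were 5.75, 5.42 and 5.93 in horses 1, 2 and 4. None of the GAPDH probes passed limma's F-test between horses with exercise in the model (adjusted p from 0.300 to 0.671), where 70 of 29552 probes (0.237%) did. No probe of the other 3 genes passed it either, with adjusted p from 0.270 to 0.852.

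The 2 tested red cell transcripts, neither of which was called, had changes above 0 in each horse, with the largest in horse 2 and the smallest in horse 4. HBB, a haemoglobin chain gene, differed by 0.90, 2.80 and 0.42 in horses 1, 2 and 4, and HBA2 by 0.93, 2.16 and 0.058, beside medians of 0.50, 0.47 and -0.021 over the 13 GAPDH probes. Of 7 red cell markers 3 could be named and 2 were tested, and SLC4A1, the anion exchanger of the red cell membrane, was well above background on no array. The summed level of the 2 tested genes, in multiples of the array's 75th percentile, ranged from 4.84 to 407 before and from 27.1 to 486 after exercise. For platelets, 2 of 6 markers were tested, with summed levels of 24.9 to 34.8 before and 24.7 to 31.3 after. The brighter SELP weighs most in that sum. SELP changed by -0.14, -0.035 and -0.15 in horses 1, 2 and 4, and ITGA2B by 0.25, 0.83 and -0.23. Summed levels of the 3 neutrophil genes were 13.2 to 23.9 before and 18.1 to 23.9 after, and of the 4 monocyte genes 11.4 to 25.6 and 16.2 to 33.1. The other marker lists had median changes of 0.11 for NK and cytotoxic cells, 0.081 for T cells, -0.11 for B cells, 0.19 for endothelium and 0.13 for eosinophils and basophils. In horses 1, 2 and 4 the medians were 0.54, 0.53 and -0.38 for monocytes, and 0.15, 0.41 and 0.12 for neutrophils. NK and cytotoxic cells had 0.36, 0.31 and -0.35, and T cells 0.23, 0.75 and -0.47. Endothelium had 0.24, 0.40 and -0.054, and platelets 0.053, 0.40 and -0.19. B cells had -0.17, -0.20 and 0.29, and eosinophils and basophils -0.26, 0.16 and 0.50. The part of any of these cells in the GAPDH values was not tested. In blood, a change in the mix of cells and a change in RNA per cell cannot be told apart.

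SLC2A1, the GLUT1 glucose carrier, gave opposite answers on its 2 probes. On A_69_P005996 the signals were 62.9, 60.5 and 31.9 before exercise in horses 1, 2 and 4, and 43.5, 30.2 and 15.2 after. The horse 4 sample taken after exercise, on the dimmest array, was the only one of the 6 not well above background. The corresponding levels had means of -5.33 ± 0.47 before and -5.97 ± 0.42 after (SD, n = 3), and the groups overlapped. The change was -0.64 (SE 0.32, 95% interval -1.41 to 0.13; limma, adjusted p = 0.999). It lay below 0 in each horse, at -0.65, -0.83 and -0.43, as did 11.5% of all tested probes. With the horse as a block its unadjusted p was 0.014 and its adjusted p 0.754. With normexp, another background correction, the change was -0.021. That setting added an offset of 50 to every signal, which makes log2 changes of signals this dim smaller. The value is thus not a like measure of size. The value from horse 4, -0.43, is the one within a slide.

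On A_69_P003526 the signals were 20.2, 40.4 and 31.6 before exercise and 39.7, 52.4 and 20.4 after. It passed the background mark on 1 array before and on 2 after. Its change was 0.47 (SE 0.24, 95% interval -0.10 to 1.04; limma, adjusted p = 0.999), with 0.86, 0.55 and 0.0090 in horses 1, 2 and 4. All 3 levels after exercise (-5.62, -5.42 and -5.79) stood above all 3 before (-6.48, -5.97 and -5.80), although -5.79 and -5.80 nearly touch. Among 29351 probes measured on all arrays, 3.51% had every sample after exercise above every sample before. It was the only one of the 21 tested member probes whose groups did not overlap, against 7.31% of all these probes in either direction. Across the 6 arrays the levels of the 2 SLC2A1 probes ran against each other (r = -0.83, with no test), so no direction for the gene could be read from them.

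VEGFA had 10 probes close to background, and its values differed in sign between horses. Per array, 3, 2 and 4 of the 10 probes were well above background before exercise in horses 1, 2 and 4. After exercise the counts were 9, 4 and 0. The horse 1 sample after exercise was thus the one with the most VEGFA probes above background. The horse 4 sample after exercise had none, with signals from 5.70 to 13.1. That sample gave the dimmest array, and the part of this in its VEGFA count was not tested. In that sample the spots of the other dim genes were at 15.2 and 20.4 for SLC2A1 and from 6.57 to 31.4 for ADM.

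By horse, 8 of 10 VEGFA probes were higher after exercise in horse 1 and 8 of 10 in horse 2, with median changes of 0.22 and 0.63. In horse 4, 9 of 10 were lower, with a median of -0.93 and a range from -1.69 to 0.81. The probe that was higher there, A_69_P005165, lies in the first array column. In the odd rows of that column 95.1% of spots on the horse 4 array from before exercise missed the background mark. At the same positions on the other arrays 35.4% to 39.8% did so. The part of this in the value of the probe was not tested. This probe was not well above background on any array. Of all probes on the array too dim to be tested, 78.6% were lower after exercise in horse 1, 78.5% in horse 2 and 20.8% in horse 4. Their median changes were -0.45, -0.16 and 0.37 in the same order. Over all tested probes the medians were 0.021, 0.10 and 0.0042. The 10 VEGFA probes include tested and untested ones, so neither set is a like comparison. The part of such shifts in the VEGFA values was not tested. With a single pair of arrays per horse, the difference between horses was not tested.

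The tested VEGFA probes did not agree on a mean direction. A_69_P005163, the brightest, had signals of 31.0, 39.6 and 36.1 before exercise and 35.4, 29.8 and 12.5 after, and passed the background mark on all 3 arrays before but 1 after. Its change was -0.35 (SE 0.24, 95% interval -0.93 to 0.23; limma, adjusted p = 0.999), and the value from horse 4, -0.89, was the lowest of the 3. With normexp and its offset of 50 the mean change of this probe was 0.060. The other 3 tested probes had changes of 0.10 (SE 0.61), 0.14 (SE 0.43) and 0.31 (SE 0.42). The widest spread belonged to A_69_P000903, at 1.45, 0.53 and -1.69 in horses 1, 2 and 4. Pearson's r between the 4 probes over the arrays ranged from 0.38 to 0.93 (6 pairs, no test). Of the 6 probes not tested, 3 were well above background on no array before exercise and on 1 or 2 after. For none of these 3 did the mean after exercise exceed the background limit of the group before, so no lower bound of a fold is given.

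**Figure D3:**
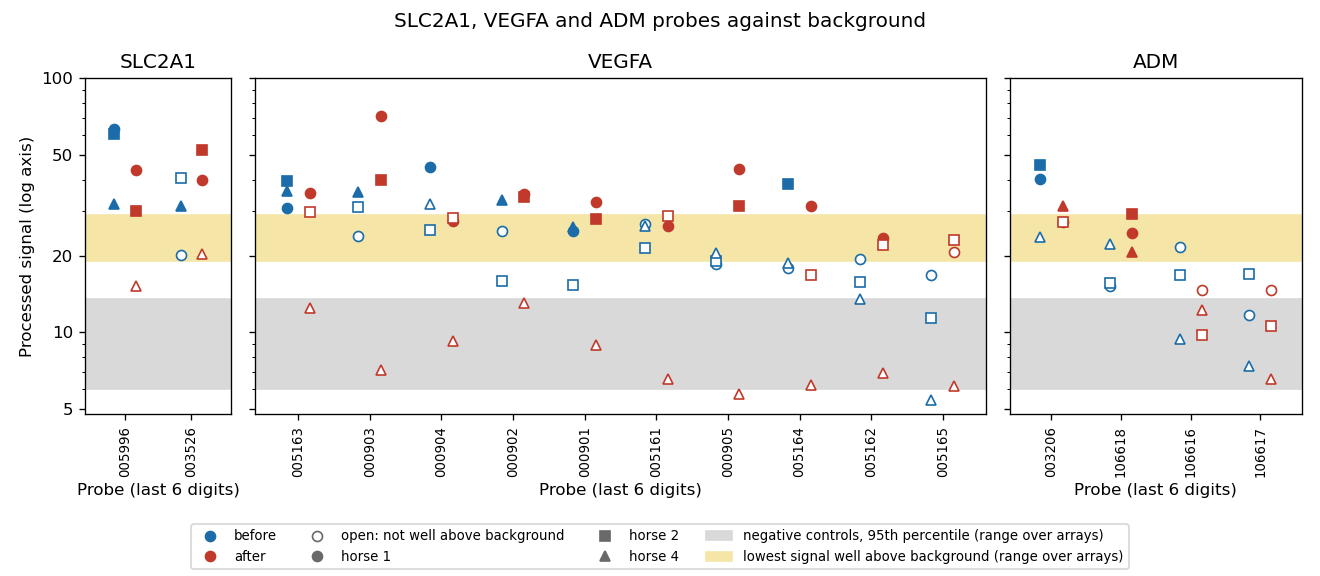
Processed signal (y axis, log axis) of each SLC2A1, VEGFA and ADM probe (x axis) on the 6 arrays, by group (colour) and horse (symbol). Filled symbols are well above background. The horse 4 sample after exercise (red triangles, the dimmest array) has no filled symbol for VEGFA and SLC2A1. ADM probe A_69_P106618 is filled in the 3 red symbols alone.

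ADM, the adrenomedullin gene, was measured by 2 of its 4 probes. The brighter one, A_69_P003206, had signals of 40.3, 45.8 and 23.8 before exercise in horses 1, 2 and 4, and 27.2, 27.2 and 31.4 after. It was lower after exercise in horses 1 and 2 (-0.69 and -0.58) and higher in horse 4 (1.04). The mean change of -0.075 (SE 0.37, 95% interval -0.95 to 0.80; limma, adjusted p = 0.999) averages these opposite values. The untested probe A_69_P106616, not well above background on any array, gave -0.69, -0.62 and 1.02. The medians of the untested dim probes named above had the same signs, while over all tested probes the medians were 0.021, 0.10 and 0.0042. The part of this in the values of both ADM probes was not tested.

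The other tested ADM probe, A_69_P106618, was well above background on all 3 arrays after exercise and on none before. Its signals were 15.3, 15.6 and 22.2 before and 24.7, 29.3 and 20.8 after, so the ranges overlapped. Relative to the 75th percentile it was higher in every horse, by 0.57, 1.08 and 0.55, as were 17.3% of all tested probes. The fitted change was 0.73 (SE 0.31, 95% interval -0.01 to 1.48; limma, adjusted p = 0.999). The measured mean levels were -6.84 before and -6.11 after. Spots brighter than the dimmest marked spot of an array can also miss the background mark. No lower bound of a fold is therefore given. This probe entered the test only through the arrays on which it was brighter, so its direction supports nothing by itself. With the horse as a block its unadjusted p was 0.013 and its adjusted p 0.754. With normexp and its offset of 50 the change was 0.28. The value from horse 4, 0.55, is the one within a slide. In horse 4 the signal itself was lower after exercise, at 20.8 against 22.2, while the 75th percentile was 1124 against 1753. The untested dim probes of the array had median changes of -0.45, -0.16 and 0.37 in horses 1, 2 and 4. The part of the scaling in the value of 0.55 was not tested. The last ADM probe, A_69_P106617, was well above background on no array, and its signals were between 6.57 and 16.9.

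The 3 dim genes were also set against GAPDH, a common reference gene of quantitative PCR. With the mean of the 13 GAPDH probes subtracted on each array in place of the 75th percentile, a setting chosen after seeing the data, SLC2A1 had -0.98 (SE 0.45), VEGFA -0.70 (SE 0.31) and ADM -0.42 (SE 0.46) on their brightest probes. None passed (limma, adjusted p = 0.839 for each). The same scaling moved the median change of all probes from 0.044 to -0.30.

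**Figure D4:**
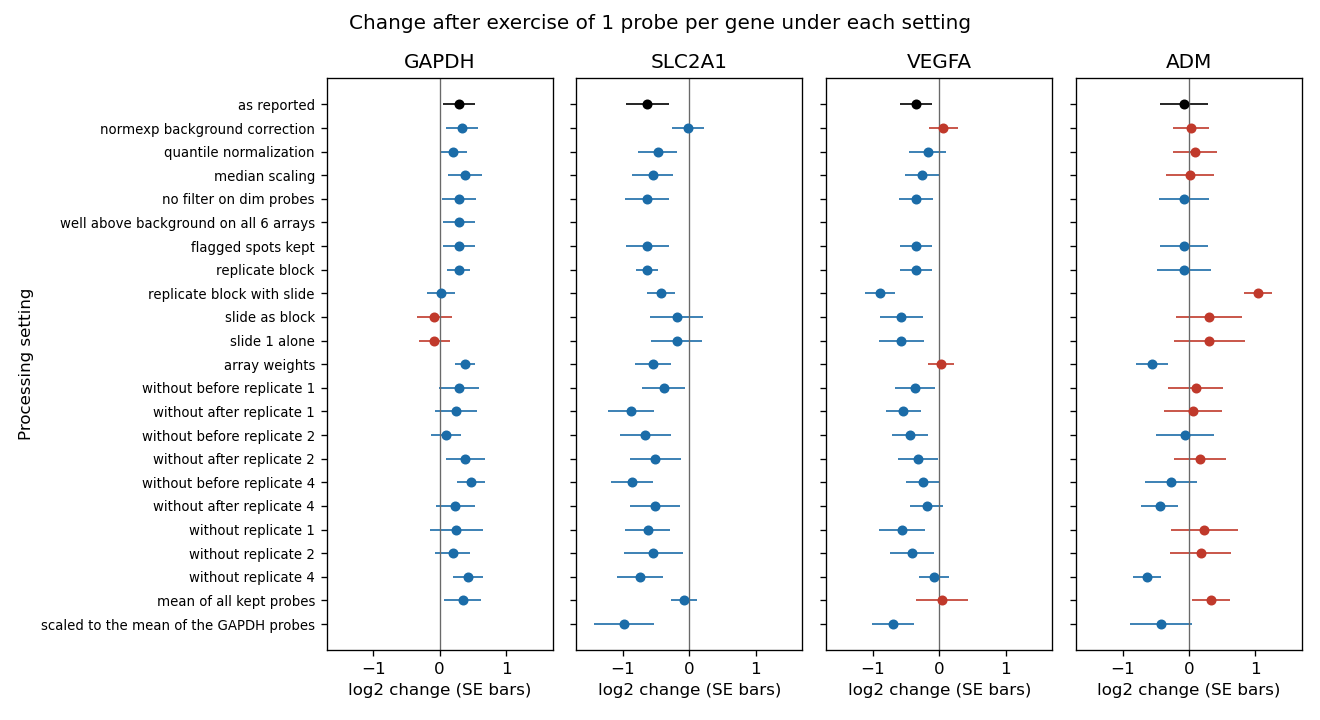
Log2 change after exercise with SE bars (x axis) of the brightest probe of each gene under each processing setting (y axis); red marks a sign opposite to the value as reported (black). The brightest SLC2A1 probe stays below 0 and is near it with normexp, as is the mean of the SLC2A1 probes. The other SLC2A1 probe, not drawn, was above 0 in every setting in which it was fitted. ADM lies on both sides.

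The other genes of these pathways were followed through lists of glycolysis, transport, glycogen and pyruvate handling, hypoxia and the VEGF and adrenomedullin signalling axes. Of 147 listed genes 35 could be named on the array and 24 were tested. None passed (limma, 0 of 24, with 1 at an unadjusted p under 0.05), as for all probes. Of the 20 tested genes that are not among the 4, 13 had a mean change above 0 and 7 below, with a median of 0.16. Over all tested probes 56.9% were above 0. No gene of the hypoxia-inducible factor machinery (15 listed), which includes the factors, the prolyl hydroxylases and VHL, could be named. VEGF receptors and the adrenomedullin receptor were not named either, so VEGFA and ADM could not be set beside their receptors.

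Among glycolytic enzymes 7 of 31 were tested, GAPDH among them, and 6 had a mean change above 0, with a median of 0.20. The medians were 0.27, 0.47 and -0.086 in horses 1, 2 and 4, and that of horse 2 is the value of the brightest GAPDH probe. LDHA, a lactate dehydrogenase subunit, had 0.20 (SE 0.24), LDHB, the other main subunit, 0.20 (SE 0.27), and PFKM, a phosphofructokinase, 0.23 (SE 0.29). All 7 passed the background mark on 6 arrays. For each of the 3 genes just named limma gave an adjusted p of 0.999. The values in horse 4 were -0.086 for LDHA, 0.21 for LDHB and -0.27 for PFKM.

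Among carriers of glucose and lactate 6 of 18 were tested, 2 with a change above 0 and 4 below, and the median was -0.21. SLC2A1 is counted among those below by its brightest probe, although its other probe was above 0. SLC2A4, the insulin-regulated carrier GLUT4, had the lowest value of the list, -0.92 (SE 0.37; limma, adjusted p = 0.999). It was lower in horses 1 and 2 (-1.59 and -1.37) and higher in horse 4 (0.20), on 1 probe that was well above background on all 6 arrays. SLC2A5, which carries fructose, had -0.20 (SE 0.19). BSG, the chaperone protein of lactate carriers, had 0.48 (SE 0.52). Of the 30 genes of glycogen, pentose phosphate and pyruvate handling 5 were tested, with 4 above 0 and a median of 0.12 beside 0.044 over all probes. PYGL, a glycogen phosphorylase, had 0.16 (SE 0.18) and was higher in all 3 horses, by 0.21, 0.16 and 0.11. PYGM, another glycogen phosphorylase, had 0.29 (SE 0.27), and GYS1, a glycogen synthase, 0.12 (SE 0.46).

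Among hypoxia targets 5 of 33 were tested, VEGFA and ADM among them, 2 with a change above 0 and 3 below. DDIT4, a stress-induced inhibitor of mTOR signalling, had 0.37 (SE 0.51), with 0.45, 1.20 and -0.55 in horses 1, 2 and 4, and all 5 of its probes had a mean above 0. PLAUR, the urokinase receptor, had 0.22 (SE 0.43). EDN1, the vasoconstrictor endothelin 1, had -1.16 (SE 0.82), and its probe passed the background mark on 2 arrays before and 1 after. EPO, NOS2, CA12, TF and TFRC, like CALCA, CALCB, SLC2A2, SLC5A1, ENO3 and PGK2 of the other lists, had no probe that could be tested. Of the adrenomedullin axis ACKR3, a scavenger receptor, was tested beside ADM, at -0.083 (SE 0.38). Limma gave each of these an adjusted p of 0.999.

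**Figure D5:**
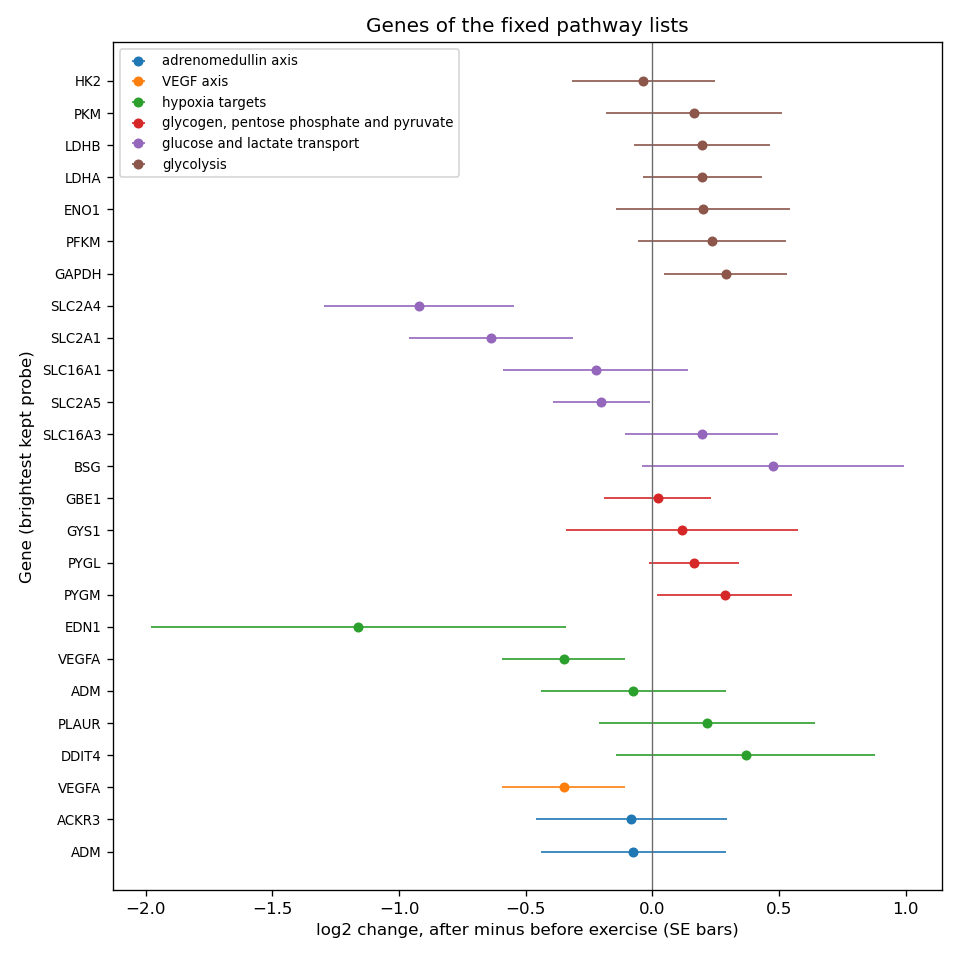
Log2 change after exercise with SE bars (x axis) of the tested genes of the pathway lists but 1 (y axis), coloured by list; a gene in 2 lists appears in both. Glycolytic genes, GAPDH among them, lie between -0.035 and 0.29, and SLC2A4 and EDN1 have the lowest values.

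The named genes whose levels over the 6 arrays were most like those of each of the 4 were found by Pearson's r against 512 genes well above background on every array. For GAPDH they were IFT27 (r = 0.99), MANF (0.98) and UBE2S (0.98), while 8.79% of the 512 genes had r above 0.9 and the median was 0.26. For ADM they were ZNF648 (r = 0.99), CXCL9 (0.98) and SLC4A2 (0.98), with 2.73% above 0.9. For SLC2A1 they were PRKAG3 (r = 0.90), SLC26A2 (0.85) and SLC10A5 (0.85). For VEGFA they were SLC5A3 (r = 0.90), ZNF322 (0.84) and IDH1 (0.80), and no gene was above 0.9 for these 2. These correlations rest on 6 arrays of 3 animals and on the brightest probe of each gene, 3 of which are near background, and they carry no test.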

How the data were processed

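The deposited files hold the spots of 1 array each from Agilent Feature Extraction 10.10.1.1 (protocol GE1_1100_Jul11), per the file headers. The values used are the processed signal, an intensity that the software background-subtracted and that was not normalized between arrays, per the file headers. No probe sequences and no coordinates were used here.

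Levels are log2 processed signals less log2 of each array's 75th percentile, taken across 43803 spots that are no controls. Spots flagged as outliers (67 to 169 per array, none in the 4 genes) and 1417 control spots were left out. Probes well above background on at least 3 arrays were kept (29571 of 43603). Accessions without versions named 1979 probes through RefSeq genes of the assembly TB-T2T. Tests were two-sided, by limma 3.58.1 (lmFit, eBayes; R 4.3.3), and p-values were adjusted by Benjamini-Hochberg across every kept probe, with 0.05 as the threshold. The brightest kept probe stands for a gene where 1 value is given. SE are limma's, from 3 against 3 arrays.

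The horse number comes from the titles and marks the same animal. Same-numbered arrays deviated together from their group means (r = 0.36, 0.40 and 0.23 across probes). The fit without the horse is the one reported, so its SE and intervals do not use the pairing. The fit with the horse is given for the counts and for the 2 member probes it put at an unadjusted p under 0.05. Its SE was 0.17 against 0.24 for the brightest GAPDH probe and 0.17 against 0.32 for that of SLC2A1. For VEGFA it was 0.24 in both fits, and for ADM 0.40 against 0.37. The named genes are the 4 members with all probes, up to 4 genes with the smallest p per pathway list, up to 2 per marker list, and 3 most similar genes per member. Of these, 1 pathway gene is counted but not reported here by name or value. The members and lists were chosen with earlier results of these data known. The fits were tested on simulated data.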

Additional observations from a re-analysis of the deposited data

How the results depend on the processing

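The brightest probe of each of the 4 genes was refitted under 21 alternatives each, and none passed under any of them. SLC2A1 kept its sign on this probe in 21 of 21, from -0.98 to -0.021. The last was with normexp background correction, which used the median spot signal and an offset of 50. The other SLC2A1 probe, A_69_P003526, was above 0 in every setting in which it was fitted, from 0.0090 to 0.72. No direction for the gene follows. GAPDH kept it in 19 of 21, and was -0.079 with slide as a block and -0.079 in slide 1 alone. Both settings reduce to the 3 arrays after exercise against the single horse 4 array before, so they are 1 value and not 2, and 1 array stands for a group. With the replicate block and slide, which leaves the horse 4 pair, it was 0.022. VEGFA kept it in 18 of 21, and was 0.060 with normexp, 0.025 with array weights and 0.048 as the mean of its kept probes. ADM changed sign in 12 of 21: 0.031 with normexp, 0.095 with quantile normalization, 0.013 with median scaling, 0.33 as the mean of its kept probes, 0.30 with slide as a block, 0.30 in slide 1 alone and 1.04 with the replicate block and slide. Leaving out 1 array or 1 horse gave -0.63 to 0.23 for ADM, 0.10 to 0.47 for GAPDH, -0.88 to -0.39 for SLC2A1 and -0.56 to -0.081 for VEGFA. Requiring all 6 arrays above background left no SLC2A1, VEGFA or ADM value. The cause of these differences was not tested.

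The count of probes called was 0 with the replicate block, which changed no call. It was 118 with the replicate block and slide, 131 with slide as a block, 122 in slide 1 alone and 1638 with array weights, and 0 to 595 when an array or horse was left out (595 without the horse 4 array before exercise, 20 without horse 4). Array weights were 15.3 for the horse 1 array after exercise and 0.219 to 1.82 for the others, so that fit leans on 1 array. Their estimation stopped before convergence. With them 1638 of 29570 probes were called, and 2 of the 21 tested member probes. These 2 were A_69_P006116 of GAPDH (1.35, limma, adjusted p = 0.035) and A_69_P003526 of SLC2A1 (0.72, limma, adjusted p = 0.048). Between horses the count was 70, against 2 without a filter and 1 after quantile normalization. The fit between horses without slide 2 was not run, since its 4 arrays leave no residual spread. Low signal limits SLC2A1, VEGFA and ADM under every setting.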
